A study of Mus musculus with 6 samples.

Results

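The genes described here are 38 regulators of the cell division cycle, taken from a fixed list of names: 14 of DNA replication (Mcm2 to Mcm7, Cdc6, Cdt1, Pcna, Rrm2, Tyms, Ccne1, Ccne2 and E2f1), 20 of mitosis (Mki67, Top2a, Ccna2, Ccnb1, Ccnb2, Cdk1, Plk1, Bub1, Bub1b, Aurka, Aurkb, Cdc20, Birc5, Kif11, Kif20a, Foxm1, Tpx2, Cenpf, Nusap1 and Ube2c) and 4 of G1 and cell cycle exit (Ccnd1, Ccnd2, Cdkn1a and Cdkn1b). All 38 were found among the 52369 genes of the deposited table, and all 38 passed the filter on low values used for the tests. Levels are in FPKM, reads scaled to the length of the gene and to the reads of the library, so that levels of genes of different length can be set side by side.

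RNA was sequenced from the tibialis anterior muscle of C57BL/6 mice that were 6 weeks old at harvest. Every mouse, controls included, had been injected at 5 weeks with 50 µl of 10 µM cardiotoxin, a venom toxin that destroys muscle fibres, and its muscle then received 6.25 µg of pcDNA3.1 plasmid with an in vivo transfection reagent in 10% glucose, the last time on day 4. Muscles were taken on day 7. The 3 libraries of the L7 group carry gain of function of Linc-smad7, a long non-coding RNA that the series title ties to myoblast differentiation, and the 3 control libraries do not. What the control plasmid carried, which cells of the muscle took up plasmid and whether each library is 1 mouse are not stated, so p-values measure the spread between these libraries, which may be partly technical. The level of Linc-smad7 itself was not analysed here.

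A dividing cell first loads the MCM helicase onto its DNA with the help of Cdc6 and Cdt1, a step called licensing, and cyclin E and E2F factors then start DNA synthesis. Cyclin A and cyclin B with Cdk1, the Aurora and Polo kinases, the spindle checkpoint and the anaphase-promoting complex carry it through mitosis, while D cyclins set the entry into the cycle and the inhibitors Cdkn1a (p21) and Cdkn1b (p27) its exit. After muscle injury the satellite cells, the stem cells of muscle, divide as myoblasts, leave the cycle and fuse into new fibres, and macrophages and connective tissue cells can divide beside them.

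L7 replicate 3 was unlike the rest. Each library held 19420012 to 24663153 reads in genes, and replicate 3 lay inside that range with 21187694. Its correlation with the others over genes was 0.920 to 0.951, against 0.979 to 0.989 among the others. Median of ratios scaling, which divides each library by its typical ratio to the average library, gave it a factor of 0.769 against 1.02 to 1.09 elsewhere. With this scaling the median of the 14788 genes tested went from -0.153 to -0.002 (log2, L7 minus control). Results are therefore given with and without this library and on both scales. Without it the 14788 genes became 14849.

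The promoters are shown because short motifs are known from promoters of replication genes (E2F) and of mitosis genes (CHR and CCAAT). A link between these motifs and the levels in any library was not tested. The windows run from 250 bases before to 30 bases after the annotated start, are taken from RefSeq on GRCm38.p6, and exist for 29 of the 38 genes, namely 12 of replication, 15 of mitosis and 2 of G1 and exit. The sequences below belong to the 3 replication and the 3 mitosis genes of highest mean FPKM among those with a window, each read on its own minus strand from 5′ to 3′. Capitals mark matches on either strand to an E2F motif (TTTCCCGC, TTTGGCGC, TTTCGCGC or TTTGCCGC), to the CHR, or cell cycle homology region (TTTGAA), or to the CCAAT box (CCAAT).
Pcna: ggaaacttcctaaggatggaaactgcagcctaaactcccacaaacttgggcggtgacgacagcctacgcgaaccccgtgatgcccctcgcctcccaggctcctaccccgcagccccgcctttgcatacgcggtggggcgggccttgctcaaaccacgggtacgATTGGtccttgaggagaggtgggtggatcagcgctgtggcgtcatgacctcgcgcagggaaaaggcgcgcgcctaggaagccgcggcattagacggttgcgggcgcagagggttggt
Mcm7: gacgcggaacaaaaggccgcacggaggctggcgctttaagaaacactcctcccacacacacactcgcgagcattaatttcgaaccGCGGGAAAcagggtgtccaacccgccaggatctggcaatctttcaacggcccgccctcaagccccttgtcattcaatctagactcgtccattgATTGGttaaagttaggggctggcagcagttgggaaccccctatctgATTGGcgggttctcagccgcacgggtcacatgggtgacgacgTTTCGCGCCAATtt
Mcm2: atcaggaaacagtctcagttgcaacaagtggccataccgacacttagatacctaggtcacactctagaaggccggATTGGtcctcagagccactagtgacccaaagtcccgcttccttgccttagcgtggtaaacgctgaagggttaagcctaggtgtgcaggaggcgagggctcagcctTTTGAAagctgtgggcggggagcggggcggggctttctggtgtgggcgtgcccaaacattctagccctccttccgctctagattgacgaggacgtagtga
Top2a: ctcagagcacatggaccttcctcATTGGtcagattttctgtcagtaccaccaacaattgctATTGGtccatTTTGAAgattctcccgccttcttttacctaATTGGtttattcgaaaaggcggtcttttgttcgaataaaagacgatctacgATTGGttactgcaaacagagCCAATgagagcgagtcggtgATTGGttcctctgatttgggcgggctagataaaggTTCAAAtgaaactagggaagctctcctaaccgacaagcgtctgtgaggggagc
Cdc20: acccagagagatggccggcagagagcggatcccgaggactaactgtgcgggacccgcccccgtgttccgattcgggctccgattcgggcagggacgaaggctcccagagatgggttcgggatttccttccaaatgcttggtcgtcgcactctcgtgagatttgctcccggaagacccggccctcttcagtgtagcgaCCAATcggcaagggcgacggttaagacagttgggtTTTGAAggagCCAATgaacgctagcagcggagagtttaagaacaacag
Cdk1: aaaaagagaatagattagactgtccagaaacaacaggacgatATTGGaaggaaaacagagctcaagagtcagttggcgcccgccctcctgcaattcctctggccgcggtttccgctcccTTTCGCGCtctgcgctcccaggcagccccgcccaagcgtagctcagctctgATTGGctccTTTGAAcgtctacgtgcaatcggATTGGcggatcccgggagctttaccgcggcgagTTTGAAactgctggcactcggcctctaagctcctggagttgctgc
The windows lie at chr2:132253151-132253430 (Pcna), chr5:138171854-138172133 (Mcm7, the most 5′ of its 2 windows), chr6:88898751-88899030 (Mcm2), chr11:99024160-99024439 (Top2a), chr4:118437314-118437593 (Cdc20) and chr10:69352883-69353162 (Cdk1).

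An E2F motif was found in the windows of 5 of 12 replication genes (41.7%: Mcm3, Mcm5, Mcm6, Mcm7 and Cdc6) and of 1 of 15 mitosis genes (6.67%: Cdk1), against 2.45% of 27025 genes with a window. The CHR was found in 8 of 15 mitosis genes (53.3%) and in 1 of 12 replication genes (8.33%: Mcm2), against 19.5% of all. CCAAT was found in 13 of 15 mitosis genes (86.7%) and in 7 of 12 replication genes (58.3%), against 39.7% of all. In Top2a the forward CHR begins 179 bases before the start and the reverse one 23 bases before it, with 6 CCAAT boxes over the window. Cdk1 holds matches to all of these motifs, and in Mcm7 the E2F motif at base 17 after the start overlaps a CCAAT box at base 24. These matches describe the letters of the windows and are not evidence of binding.

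In the 5 libraries other than L7 replicate 3, these genes were clearly expressed and steady. Of the 38 genes, 27 had a mean above 10 FPKM over the 6 libraries. The levels of single genes given next are also means over the 6 libraries, and L7 replicate 3 lowers them. Cdkn1a, the p53-induced inhibitor of cyclin-dependent kinases, was the highest at 352 FPKM, followed by Pcna, the sliding clamp of the DNA polymerases, at 103 FPKM and Top2a, the topoisomerase that untangles chromosomes, at 46.8 FPKM. The lowest were Cdc6, a licensing factor, at 2.35 FPKM, and Ccne2, a cyclin E, at 3.49 FPKM. Among the 5 libraries, 36 of the 38 genes varied by less than 1.5-fold from lowest to highest, the exceptions being Ccnd2 (1.77-fold) and Tyms (1.58-fold). Their median coefficient of variation over these libraries was 8.96%, beside 12% for all genes tested and 10.0% for genes with a mean of 5 to 50 FPKM. The median counting error of 1 value, from the reads of each gene, was 4.16%. Neighbours in the order of levels, such as Tpx2, Mki67 and Foxm1 at 14.1 to 14.3 FPKM, did not differ beyond their spread.

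**Figure D1:**
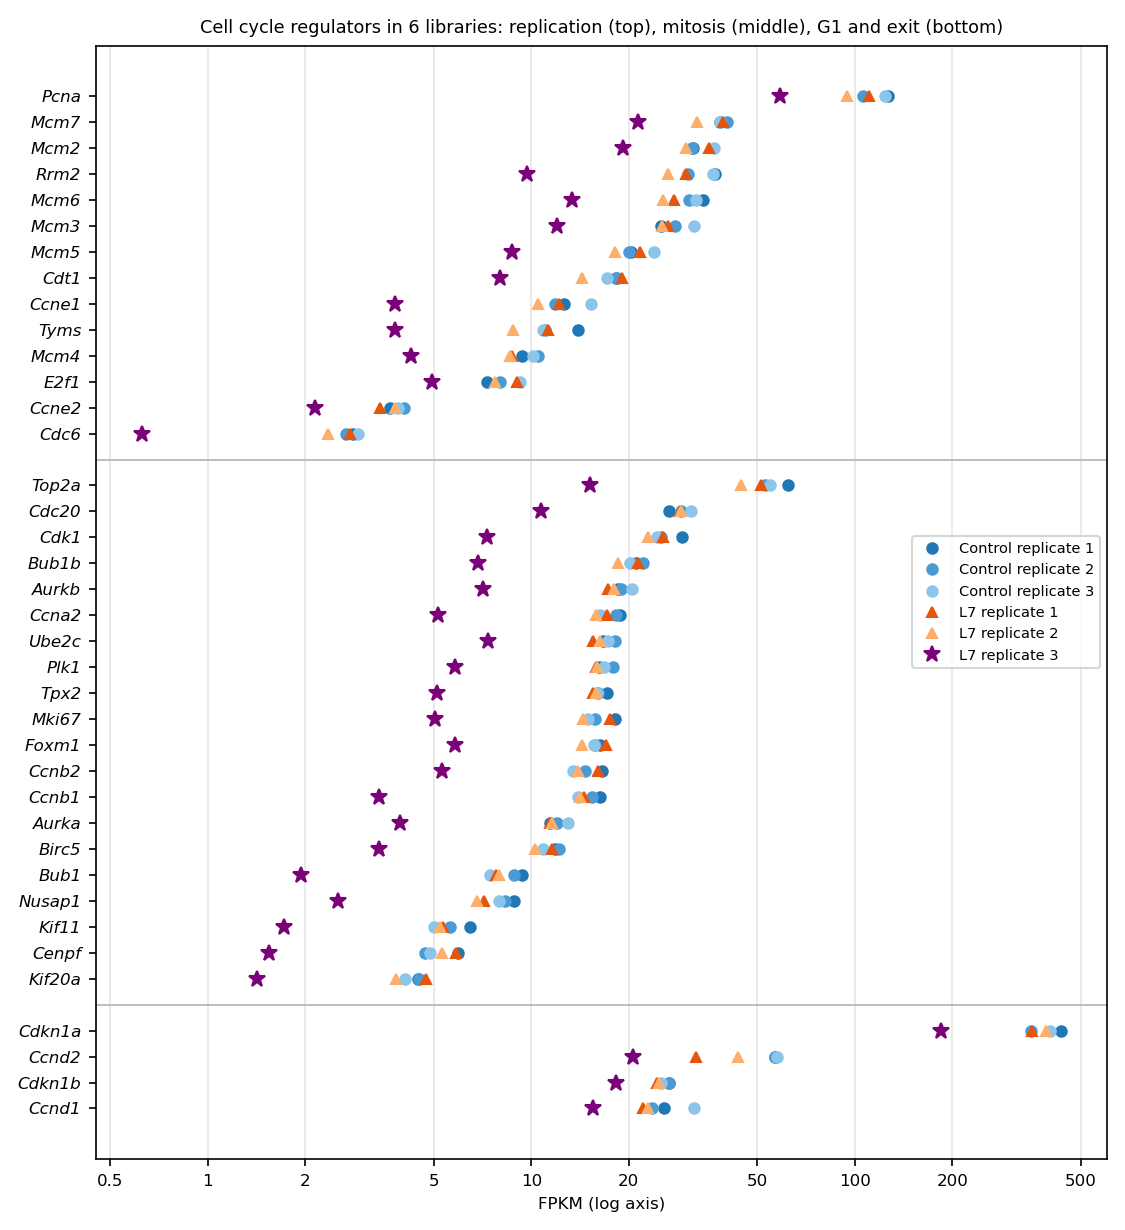
FPKM on a log axis for each of the 38 genes (rows, ordered by mean within replication, mitosis, and G1 and exit) in each of the 6 libraries (circles, controls; triangles, L7 replicates 1 and 2; star, L7 replicate 3). The star is the leftmost point in all 38 rows, and Ccnd2 is the row in which the triangles, at 32.4 and 43.7 FPKM, also lie farthest from the circles at 56.5 to 57.3 FPKM.

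The comparison of L7 with control asks whether the cell cycle genes differ in regenerating muscle with Linc-smad7 gain of function. All 38 genes had a lower mean log2 level in L7 than in control, and none passed limma at an adjusted p of 0.05, where 0.0% of all genes were called in either direction. Adjusted p-values of the 38 genes were 0.580 to 0.675. The median log2 difference on the log2(FPKM + 1) scale, L7 minus control, was -0.47 for replication, -0.53 for mitosis and -0.42 for G1 and exit, beside -0.153 for all genes tested, of which 70.8% were negative. After median of ratios scaling all 38 stayed negative, with medians of -0.30, -0.37 and -0.24 beside -0.002 and 50.3% negative for all genes.

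Most of this difference came with 1 library. L7 replicate 3 was the lowest of the 6 libraries in 38 of 38 genes, as it was in 63.2% of all genes tested, and the highest in none, against 17.6%. Without it, 34 of the 38 were still negative, but the medians were -0.12 for replication, -0.08 for mitosis and -0.16 for G1 and exit, beside -0.032 for all genes (58.1% negative). With median of ratios scaling as well, 30 of the 38 were negative, namely 12 of 14, 14 of 20 and 4 of 4, with medians of -0.09, -0.05 and -0.13 beside -0.004 for all genes (51.1% negative). On FPKM as deposited, L7 replicate 1 lay within or above the range of the controls in 24 of the 38 genes and L7 replicate 2 in 11. In the rest each was below every control. The same counts over all genes were not made, so these counts cannot be read as particular to the 38 genes. The median of the 38 genes was 94.0% of the control mean in L7 replicate 1 and 89.3% in L7 replicate 2. For all genes tested these medians were 98.0% and 96.3%. In bulk muscle, fewer dividing cells and less of these transcripts per cell cannot be told apart.

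At an unadjusted limma p of 0.05, 1 of the 38 genes was lower in L7 (Ccnd2), against 4.25% of all genes, and none was higher, against 1.65%. Ccnd2 and Mcm6 were lower at this p after median of ratios scaling (2 of 38, against 3.37% of all genes), without L7 replicate 3 (3.97%) and with both (3.2%). None of the 38 was higher in these 3 fits, against 2.78%, 2.61% and 3.32% of all genes, and none passed an adjusted p of 0.05, which 0.00673% of all genes did in the last of them. In 12 of the 38 genes every L7 library was below every control library, against 13.7% of all genes, and in none was every L7 library above, against 5.49%. These 12 were Mcm4, Mcm6 and Rrm2 of replication, Top2a, Plk1, Aurkb, Tpx2, Nusap1 and Ube2c of mitosis, and Ccnd1, Ccnd2 and Cdkn1b of G1 and exit. After median of ratios scaling 7 remained, Mcm4, Mcm6, Rrm2, Top2a, Nusap1, Ccnd1 and Ccnd2, against 8.82% of all genes. The same 7 genes were without overlap when L7 replicate 3 was also left out, against 12.2% of all genes. Left out without scaling, it gave the same 12 genes, against 15.0%. As L7 replicate 3 was the lowest library in all 38 genes, this second repeat could not change the 12. Apart from the changed scaling factors, leaving out a library cannot remove genes from such a count. Neither repeat is therefore a check on this library. In none of the 38 was every L7 library above every control in these 3 settings, against 9.57%, 12.4% and 9.9% of all genes.

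**Figure D2:**
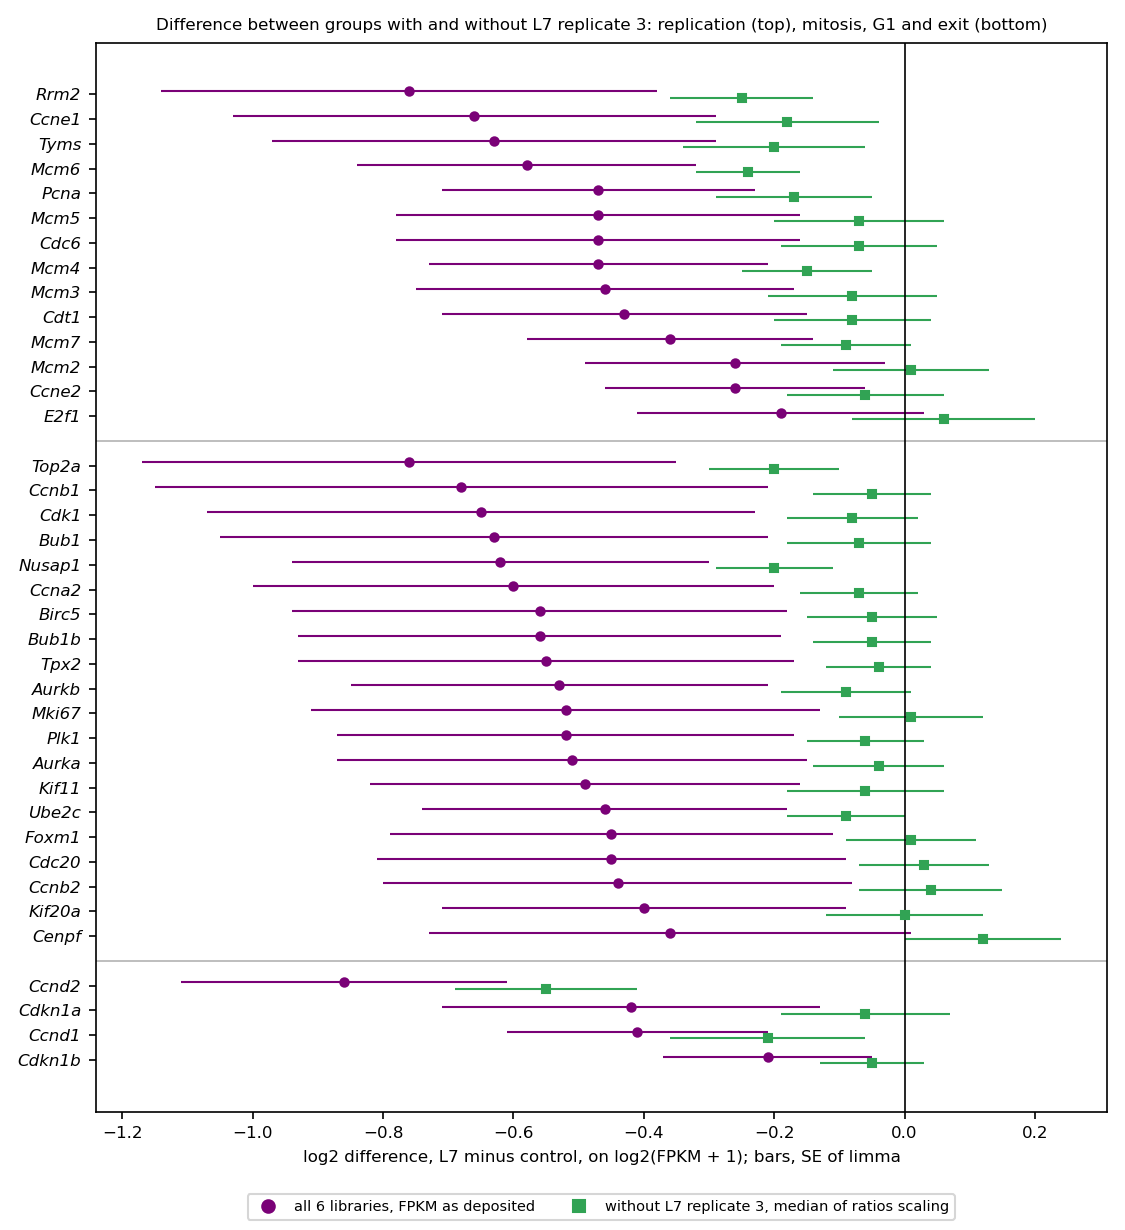
Log2 difference, L7 minus control, on log2(FPKM + 1), with its limma standard error (bars), for each gene over all 6 libraries as deposited (purple circles) and without L7 replicate 3 after median of ratios scaling (green squares). The circles run from -0.86 (Ccnd2) to -0.19 (E2f1), and the squares of all genes other than Ccnd2 lie between -0.25 and 0.12.

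The replication genes begin with the licensing factors. The 6 MCM subunits form the ring of the replicative helicase. They kept their order of level, Mcm7, Mcm2, Mcm6, Mcm3, Mcm5 and Mcm4, in 5 of the 6 libraries, while in Control 1 Mcm6 (33.9 FPKM) stood above Mcm2 (31.6 FPKM). Mcm7 was 3.78 to 5.05 times Mcm4 in each library.

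Mcm6 (mm10, chromosome 1, 128331590 to 128359664, minus strand) had 33.9, 30.8 and 32.2 FPKM in the controls and 27.6, 25.6 and 13.4 FPKM in L7. All 3 L7 libraries were below all 3 controls. Means were 32.3 ± 1.57 and 22.2 ± 7.69 FPKM (SD, n = 3 each), a log2 difference of -0.58 ± 0.26 (SE) with a limma adjusted p of 0.580, and the unadjusted p of 0.0603 was the smallest of the 14 replication genes. Without L7 replicate 3 the log2 difference was -0.27 ± 0.09 (limma adjusted p 0.743, unadjusted 0.0229). An exact two-sided permutation test gave 0.1 in both cases, the smallest p these designs allow.

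Mcm2 had 31.6, 31.3 and 36.7 FPKM in the controls and 35.4, 30.1 and 19.2 FPKM in L7. Only L7 replicate 3 was clearly below the controls, and the log2 difference of -0.26 went to -0.02 without it. The other subunits lay between these: Mcm3 averaged 28.3 FPKM in control and 21.3 in L7, Mcm4 9.95 and 7.20, Mcm5 21.5 and 16.2, and Mcm7 38.9 and 31.1. In Mcm4 the L7 libraries, at 8.74, 8.62 and 4.25 FPKM, were all below the lowest control at 9.33 FPKM.

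Cdc6, which loads the MCM ring, had 2.81, 2.67 and 2.91 FPKM in the controls and 2.75, 2.36 and 0.626 FPKM in L7. L7 replicate 3 held 42 reads of it, the fewest of any of these genes, and stood at 23.2% of the mean of the other libraries. Cdt1, its partner in licensing, had 18.3, 18.4 and 17.1 FPKM in the controls and 19.1, 14.4 and 8.01 FPKM in L7. L7 replicate 3 was thus at 45.8% for Cdt1, so the licensing partners were not lower to the same extent in that library.

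Of the genes of DNA synthesis, Pcna had 127, 106 and 124 FPKM in the controls and 111, 94.9 and 58.9 FPKM in L7, a log2 difference of -0.47 ± 0.24. L7 replicate 1 lay within the control range. Rrm2, the regulated subunit of ribonucleotide reductase, had 36.9, 30.6 and 36.4 FPKM in the controls and 30.1, 26.5 and 9.68 FPKM in L7. Its log2 difference of -0.76 ± 0.38 (limma adjusted p 0.580) was the largest of the replication genes, and it was -0.28 without L7 replicate 3. The groups were narrowly apart, with L7 replicate 1 just under the lowest control. Tyms, thymidylate synthase, averaged 12 ± 1.69 FPKM in control and 7.98 ± 3.83 in L7.

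Among the regulators that start S phase, the cyclin gene Ccne1 had 12.6, 11.8 and 15.3 FPKM in the controls and 12.2, 10.5 and 3.79 FPKM in L7. L7 replicate 3 was at 30.4% of the mean of the other libraries. Ccne2, the other cyclin E gene, was at 57.1% in that library, with 3.87 ± 0.190 FPKM in control and 3.11 ± 0.860 in L7. E2f1, which encodes an activating E2F factor, had 7.32, 7.98 and 9.26 FPKM in the controls and 9.04, 7.72 and 4.92 FPKM in L7. L7 replicates 1 and 2 lay within the control range, and the log2 difference of -0.19 ± 0.22 was the smallest of the 38 genes and turned to 0.03 without L7 replicate 3.

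The mitosis genes were the lowest in L7 replicate 3 and the most even elsewhere. Over the 20 genes this library stood at 22.7% to 43.8% of the mean of the other 5, with a median of 32%, against 23.2% to 59.5% and a median of 44.8% for the replication genes, 41.7% to 71.7% and 54.7% for the 4 genes of G1 and exit, and 72% for all genes tested. After median of ratios scaling the medians were 43.6%, 61.0% and 74.5%, beside 98.1% for all genes. Of the replication genes, 9 of 14 were above the highest mitosis gene, Ube2c at 43.8%, and the other 5 were Cdc6, Rrm2, Ccne1, Tyms and Mcm5. These are values of 1 library, with no replicate check. Over the other 5 libraries the median coefficient of variation was 6.92% for mitosis, 10.2% for replication and 12.3% for G1 and exit.

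**Figure D3:**
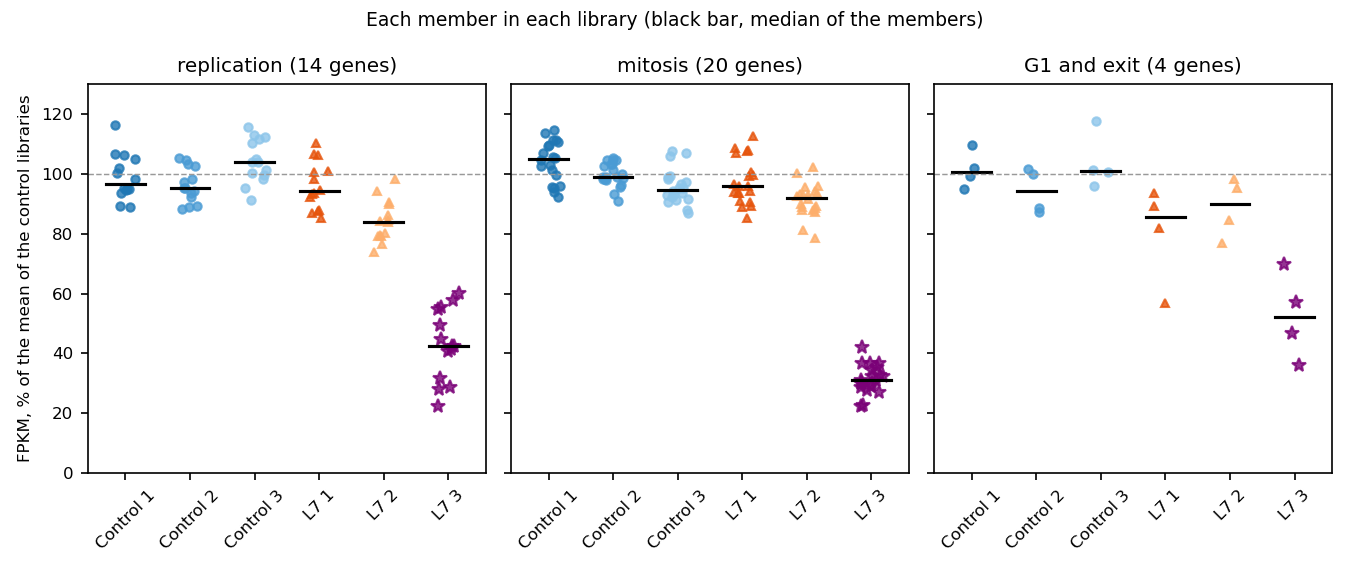
Each gene in each library as a percentage of its own mean over the 3 controls (points), with the median of the genes (black bar), for replication, mitosis, and G1 and exit. The medians of mitosis are 105%, 99.0% and 94.7% in the controls and 96.2%, 92.1% and 31.1% in L7 replicates 1 to 3, and those of replication are 96.9%, 95.4% and 104% in the controls and 94.2%, 84.1% and 42.6% in L7.

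Mki67, the proliferation marker that coats mitotic chromosomes, had 18.1, 15.7 and 15.0 FPKM in the controls and 17.5, 14.5 and 5.04 FPKM in L7. L7 replicate 1 was above the middle control. The log2 difference was -0.52 ± 0.39 (limma adjusted p 0.582) and -0.03 without L7 replicate 3. Top2a had 62.0, 52.8 and 54.7 FPKM in the controls and 51.3, 44.5 and 15.2 FPKM in L7. Its groups did not overlap. Its log2 difference was -0.76 ± 0.41 (limma adjusted p 0.580), the largest of the mitosis genes, and -0.23 without L7 replicate 3.

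Cdk1, the kinase that drives entry into mitosis, had 29.3, 25.2 and 24.5 FPKM in the controls and 25.5, 23.0 and 7.29 FPKM in L7. Ccnb1, a cyclin B that activates it, had 16.3, 15.4 and 13.9 FPKM in the controls and 14.6, 14.1 and 3.38 FPKM in L7. Ccnb2, the other cyclin B here, had 16.5, 14.7 and 13.5 FPKM in the controls and 16.1, 13.9 and 5.30 FPKM in L7. In all 3 genes L7 replicate 3 alone lay far from the rest, and Ccnb1, at 22.7% of the other libraries, was the gene in which it was the lowest. Without that library the log2 differences were -0.11 for Cdk1, -0.08 for Ccnb1 and 0.01 for Ccnb2. Ccna2, the cyclin A that spans S phase and G2, averaged 17.8 ± 1.32 FPKM in control and 12.7 ± 6.61 in L7, and Foxm1, a transcription factor of G2 and M genes, 15.9 ± 0.392 and 12.4 ± 5.85.

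The mitotic kinases and the spindle checkpoint followed the same pattern. Plk1, the Polo-like kinase, had 16.2, 17.9 and 16.8 FPKM in the controls and 15.9, 16.0 and 5.82 FPKM in L7. The L7 libraries were all below the controls, but replicates 1 and 2 by less than the range of the controls. Aurora kinases Aurka and Aurkb averaged 12.1 and 19.3 FPKM in control and 9.0 and 14.1 in L7. The checkpoint kinases Bub1 and Bub1b averaged 8.54 and 21.2 FPKM in control and 5.88 and 15.6 in L7. Birc5 (survivin), which works in a complex with Aurkb, averaged 11.6 and 8.42 FPKM.

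Of the genes that end mitosis, Cdc20, an activator of the anaphase-promoting complex, had 26.7, 29.0 and 31.2 FPKM in the controls and 28.8, 29.1 and 10.7 FPKM in L7. L7 replicates 1 and 2 were at the middle of the controls, and without replicate 3 the log2 difference was 0.00, against -0.45 with it. Ube2c, a ubiquitin-conjugating enzyme of that complex, averaged 17.4 ± 0.740 FPKM in control and 13 ± 4.94 in L7. Its exons share 22.8% of their bases with the annotation of Tnnc2, a troponin gene of adult fibres. Tnnc2 was listed at only 0.977 to 2.33 FPKM, while the fibre genes Acta1 and Mylpf were at 5720 to 33700 and 8370 to 23600 FPKM, and 74.0% of the exonic bases of Tnnc2 are shared with Ube2c.

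Of the spindle and kinetochore genes, Nusap1, which bundles spindle microtubules, had 8.82, 8.29 and 7.96 FPKM in the controls and 7.13, 6.80 and 2.52 FPKM in L7. Its groups did not overlap on either scale, with a log2 difference of -0.62 ± 0.32 over all libraries and -0.23 without L7 replicate 3. Cenpf, a kinetochore protein, had 5.94, 4.70 and 4.88 FPKM in the controls and 5.84, 5.30 and 1.55 FPKM in L7. L7 replicates 1 and 2 were both above the middle control, and its log2 difference turned from -0.36 to 0.09 without L7 replicate 3. The mitotic kinesins Kif11 and Kif20a averaged 5.69 and 4.34 FPKM in control and 4.09 and 3.32 in L7, and Tpx2, a spindle assembly factor that activates Aurka, 16.4 and 12.1.

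The genes of G1 and exit behaved less alike. Ccnd2, a D cyclin (mm10, chromosome 6, 127125162 to 127152193, minus strand), had 56.5, 56.8 and 57.3 FPKM in the controls and 32.4, 43.7 and 20.6 FPKM in L7. The controls were almost equal, and all 3 L7 libraries were well below them. These values rest on 1935, 1807 and 2315 reads in control and 1177, 1484 and 715 in L7. The counting error of 1 Ccnd2 value was 2.44%, more than the spread of the controls. Their near equality is thus no measure of the spread between libraries. Means were 56.8 ± 0.393 and 32.2 ± 11.5 FPKM (SD, n = 3 each). The log2 difference of -0.86 ± 0.25 was the largest of the 38 genes and had the smallest unadjusted limma p among them, 0.0109. It did not pass the test over all genes, with a limma adjusted p of 0.580, and 142 genes (0.96% of those tested) had a p this small or smaller, Ccnd2 included.

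The Ccnd2 difference held most of its size without L7 replicate 3, with a log2 difference of -0.58 ± 0.13 (unadjusted limma p 0.00464, adjusted 0.741), and -0.55 ± 0.14 with median of ratios scaling as well (adjusted 0.738). The mean of L7 replicates 1 and 2 was 66.9% of the control mean, against 81.8% to 108% for the 34 genes of replication and mitosis. An exact two-sided permutation test gave 0.1 with and without L7 replicate 3, the smallest p either design allows. Whether the change of Ccnd2 differed from that of the other genes was not tested. In the authors' deposited table Ccnd2 had a log2 fold change of -0.68, a p of 0.0241 and an adjusted p of 1.0. In the same authors' deposited table it was the only 1 of the 38 genes with a p under 0.05, against 1.23% of all genes tested for lower and 0.514% for higher values. Of its exonic bases, 7.86% are shared with 2 genes on the opposite strand.

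Ccnd1, another D cyclin, had 25.7, 23.6 and 31.9 FPKM in the controls and 22.2, 22.9 and 15.5 FPKM in L7. The L7 libraries lay below the controls by a margin smaller than the range of the controls, with a log2 difference of -0.41 ± 0.20 (limma adjusted p 0.580) and -0.24 without L7 replicate 3. Ccnd3, the remaining D cyclin and not one of the 38, had 121, 123 and 125 FPKM in the controls and 115, 118 and 72.6 FPKM in L7. The ratio of Ccnd3 to Ccnd2 was 2.15, 2.16 and 2.18 in the controls and 3.57, 2.69 and 3.52 in L7, and that of Ccnd1 to Ccnd2 was 0.415 to 0.557 in the controls and 0.687, 0.523 and 0.754 in L7. The share of Ccnd2 among the D cyclins relative to Ccnd3 was thus lower in each L7 library than in each control, and relative to Ccnd1 in 2 of the 3.

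Cdkn1a had 434, 351 and 401 FPKM in the controls and 353, 389 and 185 FPKM in L7. L7 replicates 1 and 2 lay within the control range, and the means of 395 ± 41.7 and 309 ± 109 FPKM gave a log2 difference of -0.42 ± 0.29, or -0.09 without L7 replicate 3. Cdkn1b had 26.7, 26.6 and 25.1 FPKM in the controls and 24.5, 24.9 and 18.3 FPKM in L7. At 71.7% of the other libraries it was the gene in which L7 replicate 3 was the least low, near the 72% of all genes tested. The ratio of Cdkn1a to Mki67, an exit gene against a proliferation gene, was 20.2 to 26.8 in the 5 other libraries and 36.6 in L7 replicate 3.

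**Figure D4:**
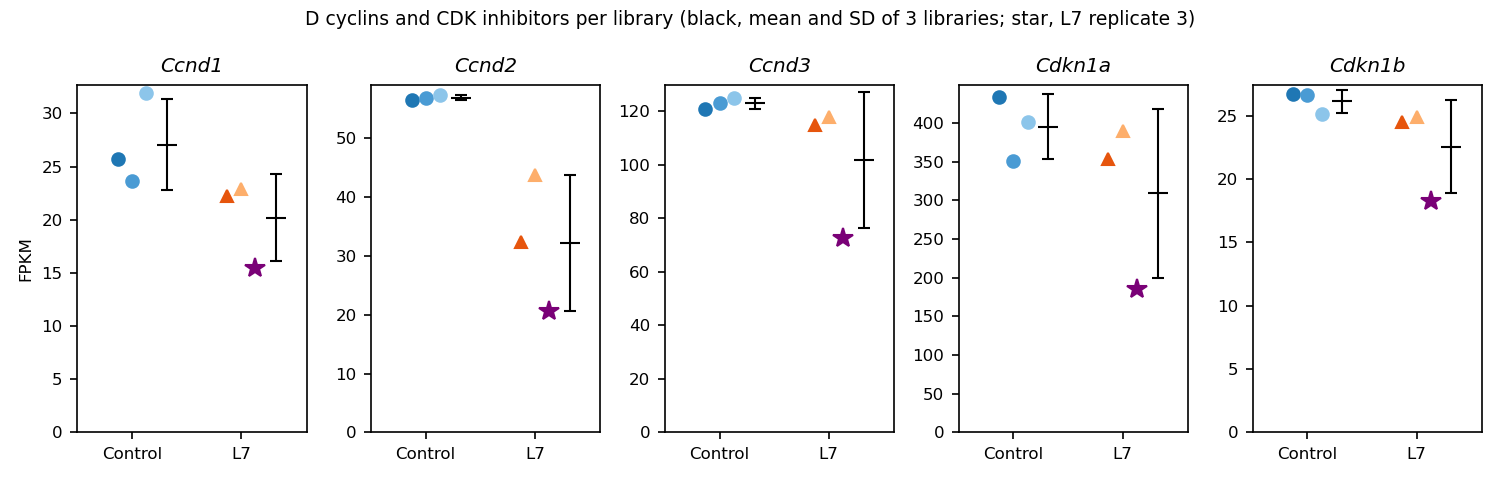
FPKM of the D cyclins Ccnd1, Ccnd2 and Ccnd3 and of the inhibitors Cdkn1a and Cdkn1b in each control library (circles) and L7 library (triangles; star, L7 replicate 3), with mean and SD of 3 libraries (black). Ccnd2 is the panel with the narrowest controls (56.5 to 57.3 FPKM) and the widest gap to the nearest L7 library (43.7 FPKM).

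The wider pathway was read from 143 other cell cycle genes, of which 140 were tested (Fen1, Sgo2a and Mycn had a mean under 1 FPKM). None passed limma at an adjusted p of 0.05. Of the other replication genes 44 of 46 were negative, with a median log2 difference of -0.38, of the mitosis genes 60 of 60 with -0.46, and of the G1 and exit genes 28 of 34 with -0.22. Of all genes tested 70.8% were negative, with a median of -0.153. Without L7 replicate 3 and with median of ratios scaling the negative genes of the 3 lists were 40, 43 and 20. Their medians were -0.10, -0.06 and -0.05, beside -0.004 and 51.1% negative for all genes. Fen1, the flap endonuclease of lagging strand synthesis, was listed at 0.0421 to 0.149 FPKM, and 84.2% of its exonic bases are shared with other annotated genes.

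Among the other replication genes, the highest were the polymerase delta subunit Pold2, at 36.6 ± 3.99 FPKM in control and 37.0 ± 1.88 in L7, and the clamp loader subunit Rfc2, at 36.4 ± 2.26 and 29.5 ± 7.10. Smallest in p among the lower ones were Rpa3 (log2 difference -0.41) and the checkpoint mediator Clspn (-0.64). Rpa1, which like Rpa3 encodes a subunit of the single-strand binding complex RPA, was the other positive gene beside Pold2, at 0.05. Of the mitosis genes, the highest were Hjurp, the chaperone of centromeric histone, at -0.48, and Ube2s, a ubiquitin-conjugating enzyme of the anaphase-promoting complex, at -0.24. The smallest p-values belonged to Sgo1, a protector of centromeric cohesion, at -0.70, and Cenpk at -0.52.

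Of the other G1 and exit genes, 4 of 34 were lower at an unadjusted limma p of 0.05, against 4.25% of all genes, and none was higher, against 1.65%. They were Mdm2, Myc, Cdkn2b and Gadd45b, the last 2 named after their values were seen. Mdm2, the ligase that degrades p53, had 62.6, 59.5 and 63.4 FPKM in the controls and 46.8, 50.5 and 29.4 FPKM in L7. Myc, a growth-promoting transcription factor, had 25.8, 22.5 and 24.7 FPKM in the controls and 19.6, 18.4 and 11.3 FPKM in L7. In both genes all L7 libraries were below all controls, and without L7 replicate 3 and with median of ratios scaling both stood at -0.31. Cdk4, the partner kinase of the D cyclins, averaged 122 ± 9.04 FPKM in control and 92.2 ± 26.5 in L7. Tob1, an antiproliferative gene, had 30.7, 38.8 and 45.6 FPKM in the controls and 43.8, 51.0 and 79.5 FPKM in L7, overlapping groups with a log2 difference of 0.56 ± 0.25 (limma adjusted p 0.580), the largest positive value of the list, and the repressor E2f6 was at 0.27.

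Cell type markers moved with L7 replicate 3 as well. The summed level of 12 adult fibre markers was 22300 to 31400 FPKM in the controls and 33800, 36700 and 101000 FPKM in L7, L7 replicate 3 was the highest library for 11 of the 12, and the median marker stood at 405% of the control mean there. The 10 satellite cell and myoblast markers summed to 207 to 243 FPKM in control and 123 to 216 in L7, with a median of 70.6% in L7 replicate 3, and the 10 markers of differentiating myocytes to 3010 to 4410 and 4670 to 5860, with a median of 49.8%. The latter sum rests on Actc1, at 3470 FPKM in L7 replicate 3, while 8 of the 10 markers were lowest there. Myod1, which defines myoblasts, had 47.2 to 71.3 FPKM in the controls and 60.3, 68.1 and 30.7 FPKM in L7. Pax7, which marks satellite cells, had 2.97 to 4.24 FPKM in the controls and 4.18, 3.31 and 2.57 FPKM in L7. Of the 10 satellite cell and myoblast markers, 7 were lowest in L7 replicate 3. Heyl and Chrdl2 were not, and Calcr, under 1 FPKM in every library, was highest there. The median of this list was thus near that of all genes.

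Markers of blood and stromal cells differed by type. The 12 macrophage markers summed to 3710 to 5500 FPKM in control and 2720 to 5210 in L7, with 11 of 12 lowest in L7 replicate 3 and a median of 54.4% there. The 7 neutrophil markers summed to 183 to 301 and 54.2 to 330 FPKM (median 20.1%), and the 10 of T and NK lymphocytes to 92.6 to 205 and 71.2 to 122 (65.6%). The lymphocyte median was similar in L7 replicate 1 (66.6%) and Control 2 (69.4%). The 6 B lymphocyte markers summed to 8.61 to 13 and 7.92 to 14.3 FPKM, with Ms4a1 and Blk under 1 FPKM in every library. Markers of fibro-adipogenic progenitors (9 genes, 8050 to 10700 and 6520 to 10400 FPKM, median 105%) and of endothelium (8 genes, 242 to 288 and 252 to 283 FPKM, 112%) were not lower in the median in L7 replicate 3. The 9 progenitor markers were split, with 3 lowest and 3 highest in that library. Of the 8 of endothelium, 0 were lowest and 4 highest. The 7 erythroid markers summed to 99.3 to 300 and 33.8 to 289 FPKM. The part of these cell types in the levels of the cell cycle genes was not tested.

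**Figure D5:**
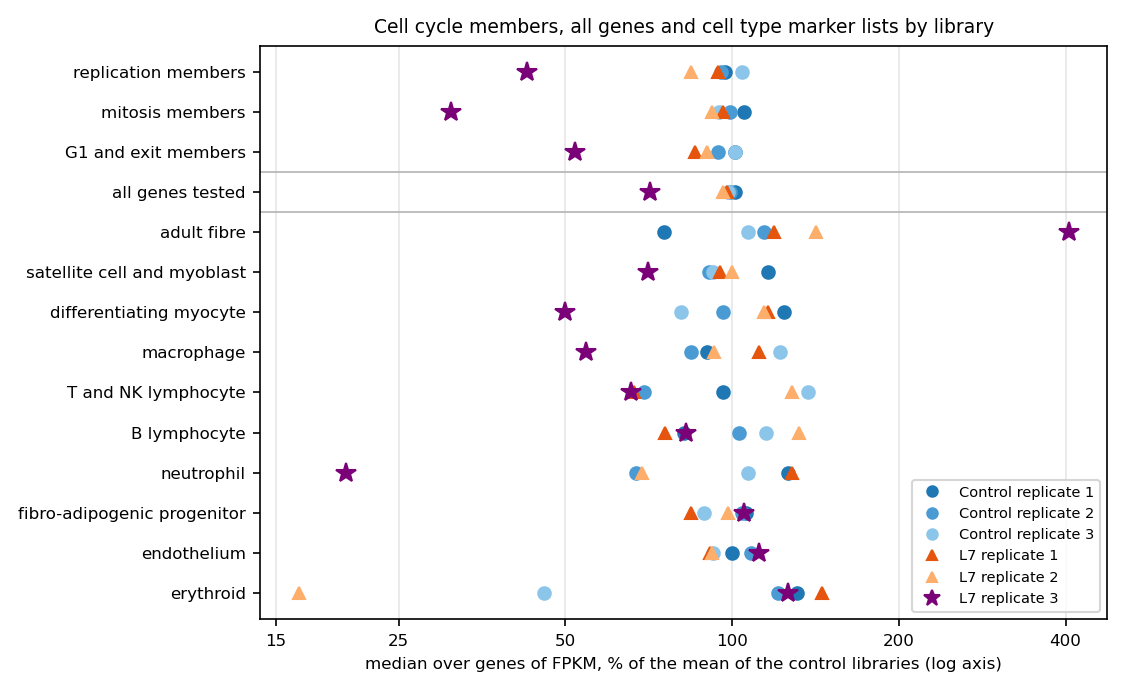
Median over the genes of each list of the FPKM as a percentage of the control mean (log axis), per library, for the cell cycle genes, all genes tested and 10 lists of cell type markers. In L7 replicate 3 (star) the mitosis genes stand at 31.1%, all genes at 71%, macrophage markers at 54.4% and adult fibre markers at 405%.

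The sexes were mixed within the groups. Reads of Y-linked genes numbered 3185 to 4184 in Control 1, Control 3 and L7 replicate 1 and 0 to 2 in the other 3 libraries, so L7 replicate 3 is female by this measure. Between males the median log2 difference was -0.10 for replication (10 of 14 genes lower) and -0.05 for mitosis (12 of 20 lower). Between females it was -0.64 and -0.77 with all 34 lower, and -0.15 and -0.13 without L7 replicate 3. Ccnd2 was at -0.79 between males and at -0.90 between females, or -0.37 without L7 replicate 3. Each sex has 1 library on one side, so these values carry no test.

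Gene Ontology terms of cell division were also covered by the authors. In the authors' deposited table of terms, cell proliferation had a corrected p of 0.00509, with 42 genes, 35 of them lower and 7 higher, and Ccnd2 was the member among them. In the same authors' deposited table, the term cell cycle (14 genes) had a p of 0.840, mitotic cell cycle (4 genes) 0.965 and DNA replication (3 genes) 0.771, each with a corrected p of 1.0. Ccnd2 is counted in these terms, DNA replication excepted, with an unadjusted p of 0.0241 in the authors' deposited comparison, where it did not pass adjustment. The genes behind the terms were thus not limited to those passing an adjusted p. That comparison includes L7 replicate 3.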

How the data were processed

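Poly-A RNA of 6 muscle libraries was sequenced. The deposited FPKM table was made by the authors. The submitters' processing notes name DESeq 1.12.0, HISAT2 2.0.4, TopHat2 2.0.12, Bowtie2 2.2.3 and the build mm10, with no role. Which counter, annotation and strand setting were used is not given in the sources here. In a comparison table deposited by the authors the columns are, per the file headers, normalised signal of each group, log2 fold change and p-values, and another gives p-values and numbers of genes (counts) for Gene Ontology terms.

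The 38 genes, the other gene lists and the tests were chosen with earlier results of these data known. Symbols came from GENCODE M21 (51633 of 52369 genes matched). The 14788 genes averaging 1 FPKM or more were tested two-sided with limma 3.58.1 (R 4.3.3, mean-variance trend) on log2(FPKM + 1), which understates changes of low genes, with Benjamini-Hochberg adjustment over all genes tested and a threshold of 0.05. Whole reads were recovered from the steps of the FPKM values (99.986% within 0.05 of a whole number) and gave depth, counting errors and the limma voom alternative (TMM factors). Alternatives covered pseudocount, filter, scaling, library weights, sex, replicate number and each library left out. Motifs and figures used Python 3.11.15, pandas 2.3.3, numpy 2.4.6 and matplotlib 3.10.9. Of the other cell cycle genes, the text names per list the 2 of highest mean FPKM. It also names up to 2 of smallest p in each direction. Markers are named by no fixed rule. Some are of highest FPKM or define a type, and others (Heyl, Chrdl2, Calcr, Ms4a1, Blk and Tnnc2) are named for their values. Exons of 13 of the 38 genes share bases with other genes, 3 of them (Ccnd1, Kif20a and Ube2c) over 20%. Without a stated strand setting, reads of such genes cannot be told apart.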

Additional observations from a re-analysis of the deposited data

How the results depend on the processing

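No member passed an adjusted p of 0.05 in any of the 17 alternatives run, and all 38 stayed negative in each except library weights (36), L7 replicate 3 left out (34), and that with median of ratios scaling (30) or with limma voom (30, an alternative chosen after seeing the data). A minimum mean of 5 FPKM left 33 genes to test. Over all genes, called lower by limma went from 0 to 1 with library weights and to 1 without L7 replicate 3 with median of ratios scaling, called higher from 0 to 2 with library weights, and, without each library in turn, called higher ranged from 0 to 1. The genes whose sign changed did so by small values. With library weights E2f1 was at 0.04 and Cenpf at 0.02. Without L7 replicate 3, E2f1 was at 0.03, Ccnb2 at 0.01, Cdc20 at 0.0 and Cenpf at 0.09. With median of ratios scaling as well, Mcm2 was at 0.01, E2f1 at 0.06, Mki67 at 0.01, Ccnb2 at 0.04, Cdc20 at 0.03, Kif20a at 0.0, Foxm1 at 0.01 and Cenpf at 0.12, and with limma voom in its place at 0.01, 0.06, 0.0, 0.05, 0.03, 0.01, 0.01 and 0.14 in the same order. Without each library in turn, E2f1 ranged from -0.35 to 0.03, Ccnb2 from -0.71 to 0.01, Cdc20 from -0.68 to 0.0 and Cenpf from -0.62 to 0.09. The cause was not tested. Ccnd2 ranged from -0.55 to -1.11, with adjusted p of 0.348 to 0.873. Deviations of same-numbered libraries correlated at 0.322, -0.065 and 0.087, and those of differently numbered libraries at -0.346 to 0.22. With 3 libraries per group this cannot tell whether the numbers pair the libraries. The replicate block gave 0 calls, 38 negative genes and a lowest limma adjusted p of 0.504 among them.

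In L7 replicate 3 5 of the 38 genes had under 100 reads.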

Other observations

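Some ratios between members lay outside the range of the other 5 libraries in L7 replicate 3, and others did not. Cdt1 to Cdc6, the licensing partners, was 5.90 to 6.95 in the 5 libraries and 12.8 in L7 replicate 3. Ccnb1 to Ccnb2, the B cyclins, was 0.908 to 1.05 and 0.637. Top2a to Pcna was 0.441 to 0.50 and 0.259, Ccne1 to Ccne2 was 2.76 to 3.95 and 1.77, and Mki67 to Mcm2 was 0.408 to 0.572 and 0.262. Myog, the myogenic factor of differentiating myocytes, to Mki67 was 9.07 to 11.1 and 14.5. Ratios to Ccnd2 varied among the other libraries: Cdkn1a to Ccnd2 was 6.18 to 10.9 in the 5 libraries and 8.97 in L7 replicate 3, Ccnd3 to Ccnd2 was 2.15 to 3.57 and 3.52, and Ccnb1 to Ccnd2 was 0.243 to 0.451 and 0.164. Cdkn1a to Cdkn1b was 13.2 to 16.2 and 10.1. For L7 replicate 3 these are values of 1 library with no replicate check.

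Annotated pseudogene copies were low beside their parents. Pcna-ps2 had 0.576 to 1.45 FPKM, Ccnb1-ps 0.0733 to 1.15 FPKM and Ccnb2-ps 0.472 to 0.991 FPKM over the 6 libraries.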
